A study of Homo sapiens with 9 samples.

Results

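The genes of glycolysis and of the cellular response to low oxygen form a set of 37 genes chosen by name, and they were followed here across 9 arrays of the T-ALL cell line ALL-SIL. A probe was matched to 36 of the 37 genes, whereas no probe was matched to *ALDOA*. Where a gene had several probes, the brightest over the 9 arrays stood for it. The probes of 34 members were well above background on all 9 arrays and were tested among 14712 genes tested, out of 19721 genes with a matched probe. The probes of *PDK1*, a mitochondrial kinase that inactivates pyruvate dehydrogenase, and of *CA9*, a carbonic anhydrase induced by low oxygen, were not well above background on any array, so these genes were not tested.

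ALL-SIL is an established cell line from a T cell acute lymphoblastic leukemia (T-ALL). In 3 groups, the cells received control siRNA, *PHF6* siRNA1 or *PHF6* siRNA2 by electroporation, with 3 samples per group that the labels number as replicates 1 to 3, and each sample was hybridized to its own one-colour Agilent array. The methods give a Silencer Select control, 1 Silencer Select siRNA and 1 ON-TARGETplus pool against *PHF6*, without saying which of these is siRNA1. Most labels give collection 96 h after electroporation, and the free-text description gives 72 h. All groups were electroporated and no group is untreated, so the level in cells without electroporation was not measured. The methods call the samples of each group independent, and neither they nor the labels say whether this means separate cultures, so p-values measure the spread between these samples.

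Values are given on a generalized log2 scale, obtained from the model of VSN, in which an inverse hyperbolic sine is taken after an affine transformation fitted per array. A difference of 1 is a doubling for bright probes and understates the change for dim ones. Levels of different genes come from different probes and were not compared with each other. Differences were tested with limma across all 33625 tested probes, with Benjamini-Hochberg adjustment over all of them and a threshold of 0.05. The targeted gene *PHF6* measured 11.07, 11.17 and 10.86 on the control arrays of replicates 1, 2 and 3. It measured 9.39, 9.69 and 9.12 with siRNA1 and 9.21, 9.28 and 9.14 with siRNA2. All 6 siRNA arrays were below all 3 control arrays, with a difference of -1.73 ± 0.14 (SE, limma adjusted p = 0.0023).

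Between 29690 and 33781 probes per array were well above background, no spot was saturated, and the correlation between arrays was 0.988 to 0.996. Replicates 1 and 2 were hybridized on 1 slide and replicate 3 on another, and each treatment group lay in 1 column of the slides, so slide column and treatment cannot be told apart. The arrays of replicate 1 lay in row 1 of their slide and those of replicates 2 and 3 in row 2. All 9 T-lineage markers, including *CD3D*, *CD5* and *LCK*, were well above background on every array. Of the markers of other cell types, *CD79A*, *CD14*, *CD68*, *ALAS2* and *KRT8* were among those also well above background on every array, and *CD22*, *COL1A2* and *EPCAM* on none. Of the T-lineage markers, *CD7* and *CD28* were lower with both siRNAs when the replicate number was a block (-0.76 and -0.54, limma adjusted p = 0.0113 and 0.0295, both over 0.05 without replicate 1 or without replicate 2), and their part in the results below was not tested. As this was RNA from whole samples, fewer cells of a type and less RNA per cell cannot be told apart.

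Glycolysis splits glucose into pyruvate in the cytosol, and lactate dehydrogenase then turns pyruvate into lactate, which leaves the cell through monocarboxylate transporters. Proliferating T-ALL cells use this route also when oxygen is present. When oxygen is scarce, prolyl hydroxylases stop marking HIF-1 alpha for degradation, and the stabilised factor binds short elements with the core ACGTG or GCGTG and turns on most glycolytic genes together with genes of iron, vessel, autophagy and collagen biology. HIF1A is controlled mainly at the level of the protein, so its target genes are read as the output of the pathway.

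To describe how often these genes carry the 2 cores, the 250 bases before the transcription start were searched in the RefSeq promoter set of GRCh38.p14. Entries were found for 32 members with 62 start sites, whereas none was matched for *SLC2A3*, *SLC16A1*, *BNIP3L*, *VEGFA* and *NDRG1*. ACGTG on either strand lay in 37.1% of the members' start sites and in 18.5% of all 35116 start sites. GCGTG on either strand lay in 33.9% and 32.2%, and at least 1 of the 2 cores in 59.7% and 43.2%. Neither core lay before any start site of *SLC2A1*, *PGAM1*, *PKM*, *LDHB* and *EGLN3*. Among these, *SLC2A1* was called between replicate numbers, so a called member can lack both cores in this stretch. The promoters printed below were picked from the members and each holds at least 1 core, and a link between cores and calls was not tested. The E-box CACGTG, which contains ACGTG on both strands and is also bound by MYC, lay in 12.9% of the members' start sites and in 6.34% of all. The members include known HIF targets by choice, so these shares describe the set and were not tested.

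The promoters of *PFKFB4*, called lower with the siRNAs under the replicate block, of *PFKL* and *GPI*, which were not called against control under any alternative, and of 3 members called between replicate numbers are printed, each with 1 start site in the set, from 5′ to 3′ on the strand of the gene, with the cores of both strands in capitals. They are the 250 bases before the start sites of *PFKFB4* (chr3:48556804-48557053, minus strand), *PFKL* (chr21:44299803-44300052, plus strand), *GPI* (chr19:34364742-34364991, plus strand), *ANKRD37* (chr4:185396591-185396840, plus strand), *EGLN1* (chr1:231422288-231422537, minus strand) and *ADM* (chr11:10304823-10305072, plus strand). The core began 166 bases before the start site in *PFKFB4*, 164 in *PFKL* and 162 in *GPI*. In *ANKRD37* a CACGTG began 162 bases before the start and a further ACGTG 143 bases before it, whereas the core began 13 bases before the start in *EGLN1* and 101 in *ADM*. The core was GCGTG in *PFKFB4*, *PFKL* and *ADM* and ACGTG in the others.
PFKFB4: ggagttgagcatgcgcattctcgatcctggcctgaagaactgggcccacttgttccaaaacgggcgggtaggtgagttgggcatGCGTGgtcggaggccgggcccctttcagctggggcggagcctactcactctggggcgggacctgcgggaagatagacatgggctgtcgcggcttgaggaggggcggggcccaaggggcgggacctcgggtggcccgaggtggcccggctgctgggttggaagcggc
PFKL: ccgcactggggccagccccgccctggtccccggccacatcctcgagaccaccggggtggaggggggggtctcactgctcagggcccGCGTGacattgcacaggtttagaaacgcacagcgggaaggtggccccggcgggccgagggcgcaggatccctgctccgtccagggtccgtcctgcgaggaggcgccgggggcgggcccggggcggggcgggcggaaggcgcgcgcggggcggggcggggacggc
GPI: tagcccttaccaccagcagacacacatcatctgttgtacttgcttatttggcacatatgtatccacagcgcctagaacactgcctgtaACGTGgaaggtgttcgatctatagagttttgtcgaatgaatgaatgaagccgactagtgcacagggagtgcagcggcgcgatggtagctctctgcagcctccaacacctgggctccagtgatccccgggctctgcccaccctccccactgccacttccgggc
ANKRD37: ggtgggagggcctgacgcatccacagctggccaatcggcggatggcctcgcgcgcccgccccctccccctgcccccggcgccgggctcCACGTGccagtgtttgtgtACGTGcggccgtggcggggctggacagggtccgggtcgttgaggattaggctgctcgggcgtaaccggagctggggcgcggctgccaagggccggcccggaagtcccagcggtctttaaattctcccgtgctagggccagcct
EGLN1: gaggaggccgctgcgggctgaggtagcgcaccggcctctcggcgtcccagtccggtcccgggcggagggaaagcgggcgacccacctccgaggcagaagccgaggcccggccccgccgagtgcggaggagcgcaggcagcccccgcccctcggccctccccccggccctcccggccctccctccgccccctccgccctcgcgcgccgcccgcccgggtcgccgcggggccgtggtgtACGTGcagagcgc
ADM: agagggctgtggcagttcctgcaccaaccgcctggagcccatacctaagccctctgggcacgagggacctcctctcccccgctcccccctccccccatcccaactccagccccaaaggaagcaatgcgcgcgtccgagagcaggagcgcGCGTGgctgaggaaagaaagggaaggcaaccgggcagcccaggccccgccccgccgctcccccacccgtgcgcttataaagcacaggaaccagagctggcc

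Most glycolysis and hypoxia genes measured slightly lower in cells electroporated with *PHF6* siRNA than with the control siRNA, although no single member passed the test when the replicate number was left out of the model. Of the 34 tested members, 30 had a difference below 0 for both siRNAs against control, against 58.9% of all tested genes. The median difference was -0.25 for the members and -0.04 for all tested genes, and the members ranged from -0.58 to 0.11. In limma no member was called, against 0.0068% of genes called lower and 0% called higher. At unadjusted p under 0.05, 8 members were lower and none higher, against 4% of genes lower and 2.38% higher. The 8 were *HK2*, *GPI*, *PFKL*, *TPI1*, *PGAM1*, *PFKFB4*, *EGLN3* and *MXI1*. As the members and the other lists below were chosen with earlier results of these data known, their shares beside all genes are descriptions and were not tested.

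Samples with the same replicate number deviated together, so the fit was repeated with the replicate number as a block. With the block, 1 member was called, *PFKFB4*, against 1.26% of genes called lower and 1.2% called higher, and 19 members were lower at unadjusted p under 0.05 against 11.5% of genes. All 6 siRNA arrays lay below all 3 control arrays for 6 members, *PFKL*, *PFKP*, *PGAM1*, *ENO1*, *PFKFB4* and *MXI1*, which is 17.6% of the members against 2.74% of genes. For 16 members, 47.1%, each of the 6 siRNA arrays was below the control array of its own replicate number, against 14.1% of genes. No member lay above in either way, against 1.09% and 7.4% of genes. Both siRNAs share the 3 control arrays, so their differences are not independent of each other. The plot of all members by array shows these values for each sample.

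**Figure D1:**
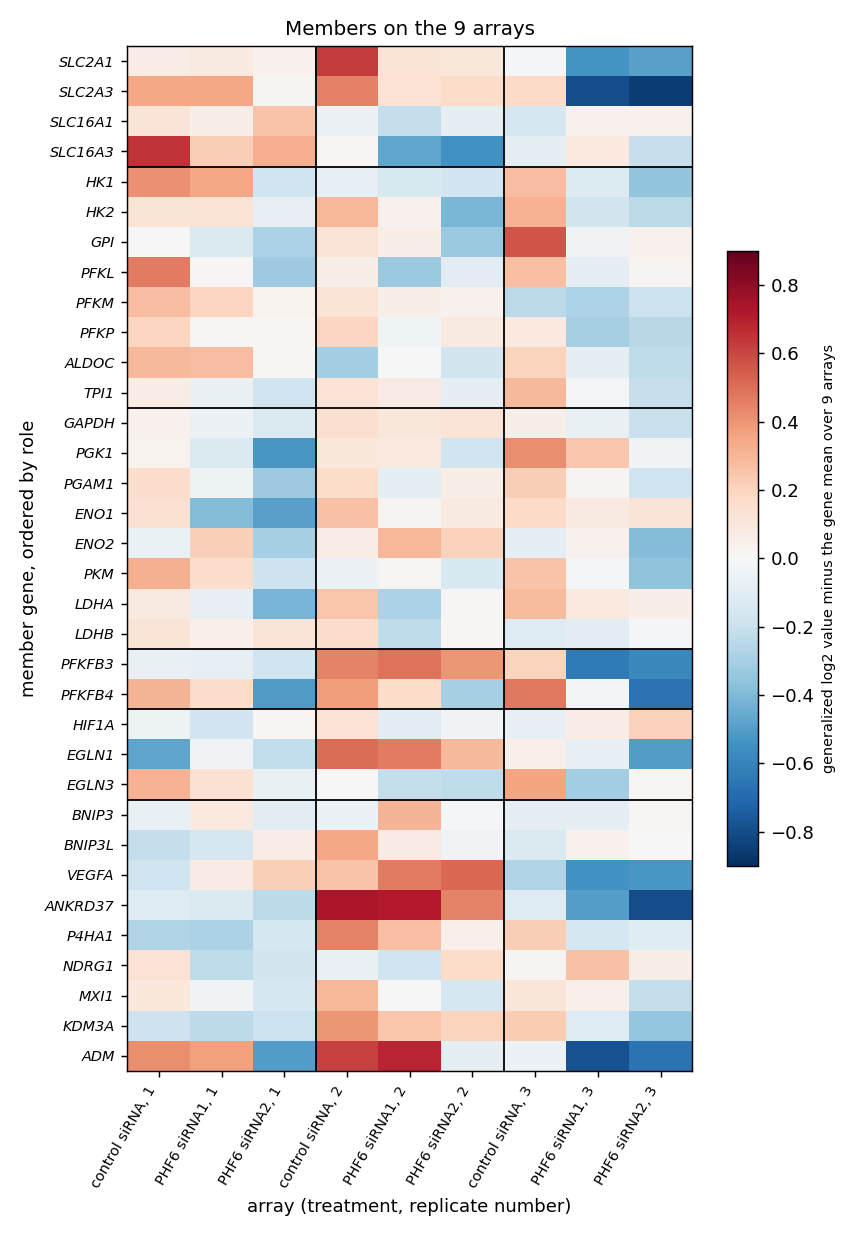
Each row is a tested member, each column 1 of the 9 arrays, grouped by replicate number, and the colour is the generalized log2 value minus the mean of that gene over 9 arrays. Within each replicate number the 2 siRNA columns are bluer than the control column for most genes. Within each treatment group, *ANKRD37*, *EGLN1*, *PFKFB3*, *KDM3A* and *P4HA1* are highest in replicate 2.

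The shift of the set was present on every siRNA array. The median of the members minus the control array with the same number was -0.08, -0.16 and -0.27 with siRNA1 in replicates 1, 2 and 3, and -0.24, -0.19 and -0.34 with siRNA2. Over all tested genes the same medians were -0.03, -0.10 and -0.02 with siRNA1 and -0.0034, -0.04 and 0.00095 with siRNA2. Between 26 and 29 of the 34 members were below their own control on each array, against 49.8% to 65.0% of all genes. With siRNA1 the median difference of the members was -0.17 and with siRNA2 it was -0.31, with 29 of 34 members below 0 for each, against 61.8% and 53.5% of genes. With the block, limma called no member with siRNA1, against 0.551% of genes lower and 0.299% higher. At unadjusted p under 0.05, 8 of the 34 members were lower and none higher, and 6493 of 33625 probes passed in either direction. With the block, limma called 1 member with siRNA2, against 0.856% of genes lower and 0.741% higher. At unadjusted p under 0.05, 18 of the 34 members were lower and none higher, and 6575 of 33625 probes passed in either direction. Between siRNA2 and siRNA1, 25 of 34 members had a difference below 0 against 42.4% of genes, with a median of -0.08. Here limma called no member with or without the block, against 0.0272% of genes lower and 0.0068% higher with it. At unadjusted p under 0.05, 1 and 5 members were lower without and with the block, and none was higher. In either direction, 841 and 3275 of 33625 probes passed. These probe counts include probes without a matched gene, so they are not shares over genes.

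**Figure D2:**
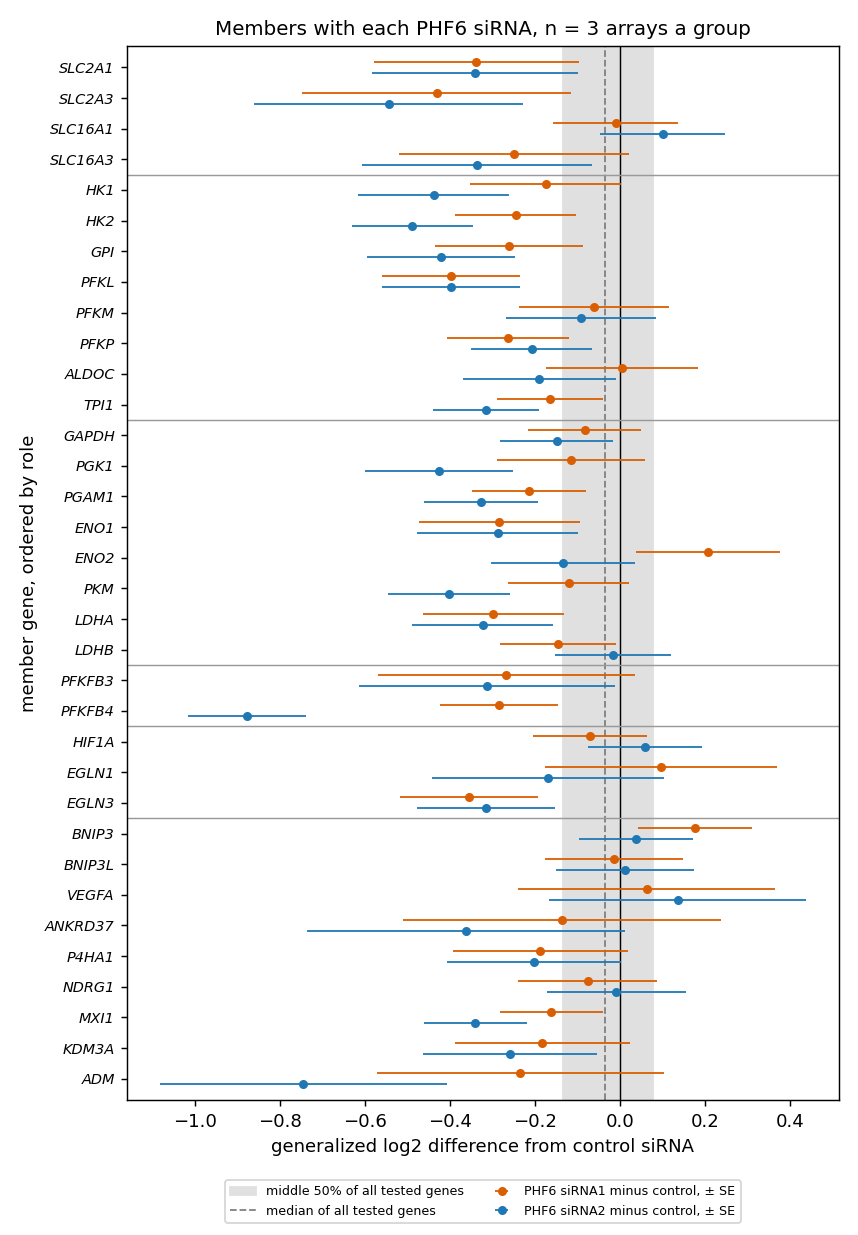
Points are the generalized log2 differences of siRNA1 (orange) and siRNA2 (blue) from the control siRNA with their SE from limma, 3 arrays per group, for each tested member. The grey band holds the middle 50% of all tested genes and the dashed line is their median, and 29 of 34 points of each siRNA lie below 0.

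The size of this shift depended on the normalization. The median over all genes was itself graded by brightness: for both siRNAs against control it was 0.05 in the dimmest of 4 equal bins of tested genes and -0.08 in the brightest bin, where 73.5% of genes were below 0 and 19 members lay. The members of the brightest bin had a median of -0.27, and 18 of the 19 were below 0. With normexp background correction and quantile normalization, the gene median of that bin was 0.0042, and the 19 members had a median of -0.17 with 14 below 0. Under that normalization 25 of all 34 members were below 0 with a median of -0.16. All 6 siRNA arrays then lay below all controls for 1 member and below their own control for 9. The part of brightness in the result was not tested.

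**Figure D3:**
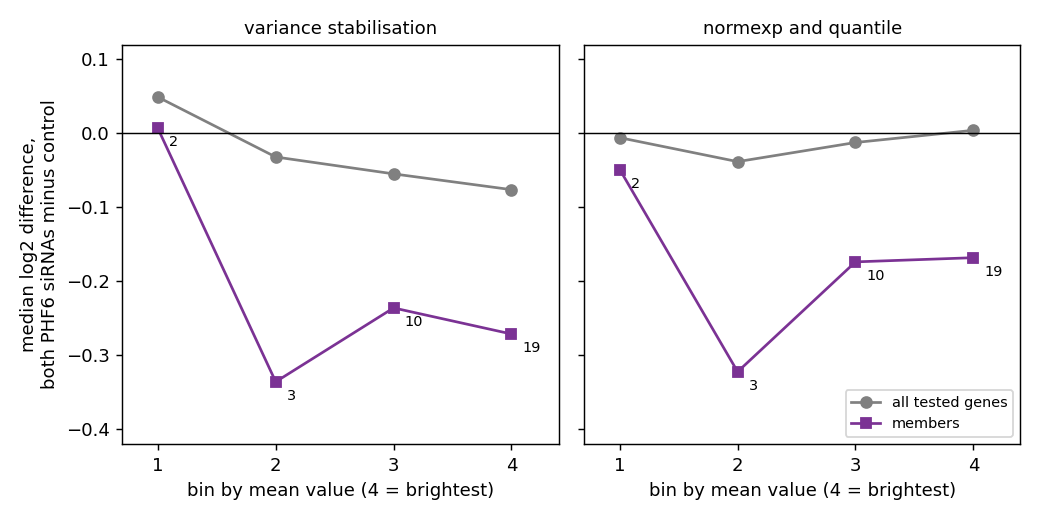
Median generalized log2 difference of both siRNAs from control by bin of tested genes, 4 bins of equal size ordered by mean value from dimmest (1) to brightest (4), for all tested genes (grey) and for the members (purple, with the number of members beside each point). Under the main normalization (left) the gene medians go from 0.05 to -0.08, under normexp and quantile (right) they stay between -0.04 and 0.0042, and the members of bins 2 to 4 are below the genes in both.

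The transporters of glucose and lactate differed from control mostly in 1 or 2 of the 3 replicate numbers, and none was called by limma with or without the block. The glucose transporter *SLC2A1* (GLUT1) measured 12.33, 12.89 and 12.25 on the control arrays of replicates 1, 2 and 3, 12.34, 12.38 and 11.73 with siRNA1, and 12.30, 12.37 and 11.77 with siRNA2. It was level with the control in replicate 1 and about 0.5 lower in the others, which gave -0.34 ± 0.21 for both siRNAs (limma adjusted p = 0.756). *SLC2A3* (GLUT3), a transporter with high affinity for glucose, measured 8.67, 8.77 and 8.49 in control, 8.67, 8.45 and 7.52 with siRNA1, and 8.35, 8.49 and 7.47 with siRNA2. The difference was -0.49 ± 0.27 (limma adjusted p = 0.739), and most of it came from replicate 3, where both siRNAs were lower by -0.996 against -0.16 and -0.30 in replicates 1 and 2. The lactate exporter *SLC16A3* (MCT4) measured 12.69, 12.07 and 11.96 in control, 12.27, 11.58 and 12.13 with siRNA1, and 12.37, 11.50 and 11.84 with siRNA2. Here the lower values were in replicates 1 and 2, with -0.29 ± 0.23 in all (limma adjusted p = 0.821). *SLC16A1* (MCT1), which carries lactate in both directions, differed by 0.04 ± 0.13.

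In upper glycolysis, from glucose to triose phosphate, all 8 tested enzymes had a difference below 0 for both siRNAs, with a median of -0.27, and none was called by limma with or without the block. *PFKL*, the liver-type subunit of phosphofructokinase, had the lowest value of the group at -0.40 ± 0.14 (limma adjusted p = 0.645, and 0.087 with the replicate block), with -0.40 for each siRNA. Its control arrays measured 14.59, 14.17 and 14.39 against 14.13, 13.79 and 14.04 with siRNA1 and 13.79, 14.03 and 14.14 with siRNA2, without overlap. *HK2*, the inducible hexokinase, differed by -0.37 ± 0.12 and *HK1*, the constitutive one, by -0.31 ± 0.15. *GPI*, which isomerises glucose phosphate to fructose phosphate, measured 16.64, 16.75 and 17.21 in control, 16.51, 16.70 and 16.61 with siRNA1 and 16.36, 16.31 and 16.68 with siRNA2. Each siRNA array was below its own control, but the groups overlapped across replicates, and the difference was -0.34 ± 0.15. *TPI1* (triose phosphate isomerase) differed by -0.24 ± 0.11 and the platelet-type subunit *PFKP* by -0.24 ± 0.12. The muscle-type subunit *PFKM* measured 8.26, 8.11 and 7.74 in control, 8.18, 8.04 and 7.71 with siRNA1 and 8.02, 8.02 and 7.79 with siRNA2, and differed by -0.08 ± 0.15. *ALDOC*, an aldolase, differed by -0.09 ± 0.15 at a dim probe.

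In lower glycolysis and lactate formation, 7 of 8 tested enzymes had a difference below 0, with a median of -0.27, and none was called by limma with or without the block. *ENO1*, the main enolase, measured 17.22, 17.34 and 17.25 in control, 16.69, 17.11 and 17.17 with siRNA1 and 16.60, 17.17 and 17.20 with siRNA2. All siRNA arrays were below all controls, by -0.58 in replicate 1 and by -0.07 in replicate 3, and the difference was -0.29 ± 0.16 (limma adjusted p = 0.741). *PGK1*, which makes ATP from bisphosphoglycerate, measured 16.79, 16.86 and 17.18 in control, 16.63, 16.85 and 17.00 with siRNA1 and 16.24, 16.58 and 16.73 with siRNA2. It differed by -0.12 ± 0.17 with siRNA1 and by -0.43 ± 0.17 with siRNA2, and siRNA2 gave the lowest value of each replicate number. *LDHA*, which makes lactate from pyruvate, differed by -0.31 ± 0.14, *PGAM1* (phosphoglycerate mutase) by -0.27 ± 0.12 and *PKM* (pyruvate kinase) by -0.26 ± 0.12. *GAPDH* differed by -0.12 ± 0.11 and *LDHB*, the isoform that favours pyruvate, by -0.08 ± 0.12, and both were above 0 with normexp and quantile normalization, at 0.07 each. *ENO2*, the neuronal enolase, differed by 0.04 ± 0.15, with 0.21 ± 0.17 for siRNA1 and -0.13 ± 0.17 for siRNA2.

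The bifunctional enzymes of the PFKFB family make and break fructose bisphosphate, the allosteric activator of phosphofructokinase, and *PFKFB4* was the one member that fell with the siRNAs when the replicate number was a block. It measured 12.68, 12.75 and 12.85 in control, 12.53, 12.54 and 12.35 with siRNA1 and 11.86, 12.07 and 11.71 with siRNA2. The 3 groups did not overlap, with the control arrays highest and the siRNA2 arrays lowest. For both siRNAs the difference was -0.58, which is 66.9% of control (limma adjusted p = 0.0211 with the block and 0.35 without it). With siRNA2 it fell by 0.88 to 54.5% of control (limma adjusted p = 0.0103 with the block and 0.191 without it). With siRNA1 the value was -0.28, or 82.1% of control (limma adjusted p = 0.208 with the block). The difference between siRNA2 and siRNA1 was -0.59 (limma adjusted p = 0.157 with the block), so the siRNAs were not shown to differ. Across both siRNAs the blocked call was lost without any 1 of the 3 replicate numbers, with adjusted p of 0.13, 0.10 and 0.0812 without replicates 1, 2 and 3, and also when the block was joined with VSN on the processed signal (0.0521) or 75th percentile scaling (0.0518). For siRNA2 the blocked call was lost without replicate 1 (adjusted p = 0.117) or replicate 2 (0.0845), and with the same normalizations joined to the block (0.0502 and 0.0538).

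*PFKFB3*, the family member with the strongest kinase activity, measured 11.17, 11.69 and 11.44 in control, 11.16, 11.73 and 10.61 with siRNA1 and 11.06, 11.64 and 10.66 with siRNA2. It was level with the control in replicates 1 and 2 (-0.06 and -0.0062) and lower by -0.81 in replicate 3, with -0.29 ± 0.26 in all. *PFKFB3* and *SLC2A3* thus had low values on the same 2 arrays, those of siRNA1 and siRNA2 in replicate 3. The values of *PFKFB4*, *SLC2A3* and other members by replicate number are shown in the plot of 9 members.

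**Figure D4:**
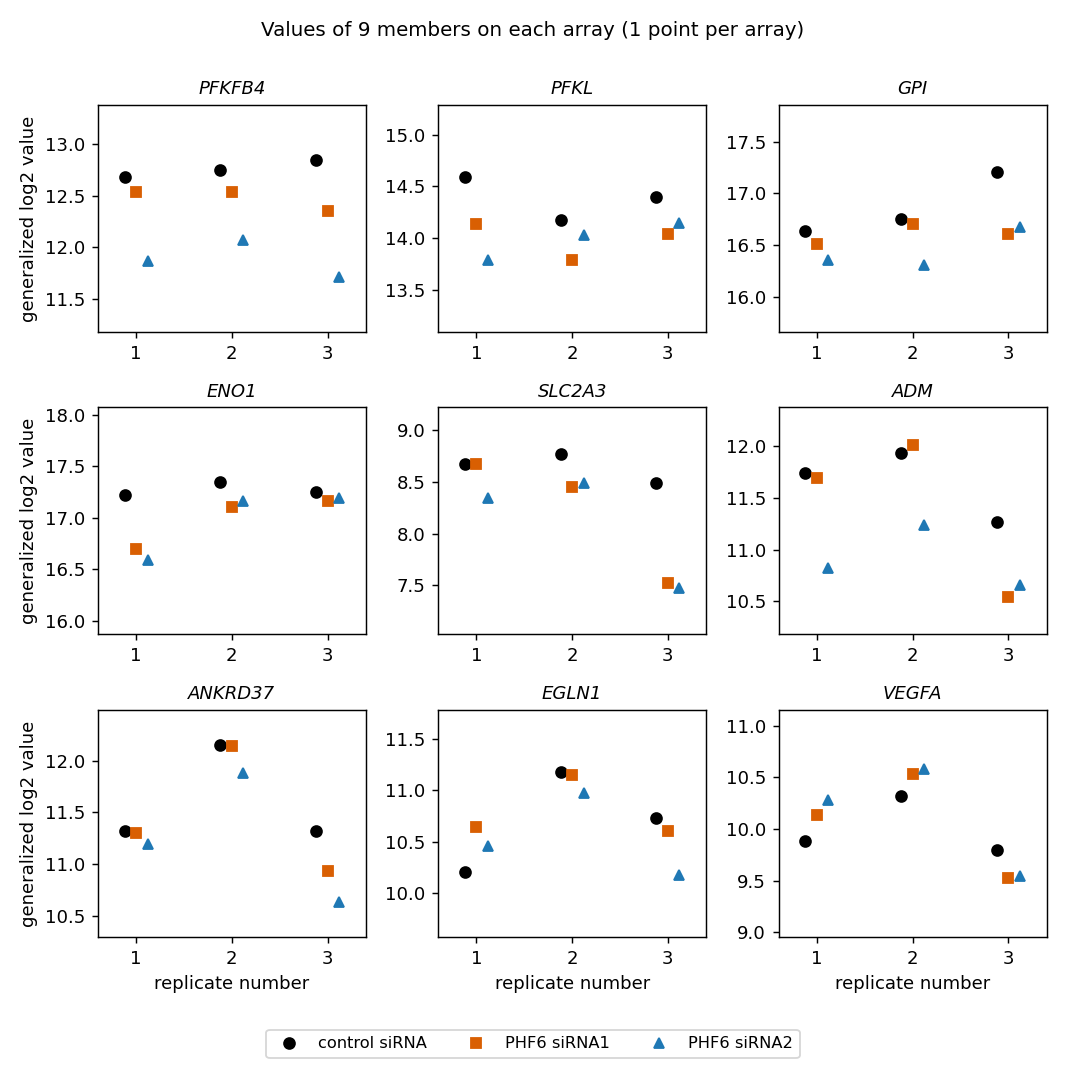
Generalized log2 value of 9 members on each array (1 point per array) by replicate number, for control siRNA (black circles), siRNA1 (orange squares) and siRNA2 (blue triangles). *PFKFB4* is ordered control, siRNA1, siRNA2 in every replicate number, *SLC2A3* is lowest on the 2 siRNA arrays of replicate 3, and *ANKRD37* and *EGLN1* are highest on all 3 arrays of replicate 2.

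Among the genes of oxygen sensing, *HIF1A*, the oxygen-regulated subunit of the factor, differed by -0.01 ± 0.12 for both siRNAs, and its 9 values lay between 10.38 and 10.76. *EGLN3*, a prolyl hydroxylase that is itself induced by HIF, differed by -0.34 ± 0.14 (limma adjusted p = 0.651), and each siRNA array was below its own control. *EGLN1*, the main prolyl hydroxylase, measured 10.20, 11.18 and 10.73 in control, 10.64, 11.14 and 10.61 with siRNA1 and 10.46, 10.97 and 10.17 with siRNA2. The siRNAs were 0.35 above the control in replicate 1 and below it by -0.12 and -0.33 in replicates 2 and 3, which gave -0.04 ± 0.24.

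Of 9 tested HIF target genes, 7 had a difference below 0 for both siRNAs, with a median of -0.20, and none was called by limma with or without the block. *ADM*, the vasodilator peptide adrenomedullin, measured 11.74, 11.94 and 11.27 in control, 11.69, 12.01 and 10.54 with siRNA1 and 10.82, 11.24 and 10.66 with siRNA2. It differed by -0.75 ± 0.34 with siRNA2 (limma adjusted p = 0.844, and 0.0658 with the block) and by -0.23 ± 0.34 with siRNA1, where replicates 1 and 2 stayed close to control. *MXI1*, an antagonist of MYC, differed by -0.25 ± 0.11, with all siRNA arrays below all controls. *ANKRD37*, an ankyrin repeat protein known as a HIF target, measured 11.32, 12.16 and 11.32 in control, 11.30, 12.14 and 10.94 with siRNA1 and 11.20, 11.88 and 10.63 with siRNA2. All 6 siRNA arrays were below their own control, by -0.07, -0.15 and -0.53 in replicates 1, 2 and 3, whereas the spread between replicate numbers was wider than these differences.

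The histone demethylase *KDM3A* measured 10.71, 11.30 and 11.13 in control, 10.66, 11.14 and 10.78 with siRNA1 and 10.71, 11.10 and 10.55 with siRNA2, a difference of -0.22 ± 0.18. *P4HA1*, a collagen prolyl hydroxylase, measured 12.40, 13.12 and 12.90 in control, 12.39, 12.95 and 12.52 with siRNA1 and 12.52, 12.73 and 12.57 with siRNA2, a difference of -0.20 ± 0.18. *VEGFA*, the vascular growth factor, measured 9.89, 10.32 and 9.79 in control, 10.14, 10.53 and 9.52 with siRNA1 and 10.28, 10.58 and 9.55 with siRNA2. It was above the control in replicates 1 and 2 (0.32 and 0.24) and below it in replicate 3 (-0.26). The mitophagy receptors *BNIP3* and *BNIP3L* differed by 0.11 ± 0.12 and -0.0011 ± 0.14, and the stress-response gene *NDRG1* by -0.04 ± 0.14.

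Between replicate numbers, compared with treatment in the model, several genes of oxygen sensing, HIF targets and glucose transporters passed the test. Replicates 1 and 2 shared a slide but lay in different rows of it, so slide row and replicate number cannot be told apart there. In replicate 2 against replicate 1, limma called 4 members higher, *ANKRD37* by 0.79 ± 0.12, *EGLN1* by 0.66 ± 0.14, *P4HA1* by 0.49 ± 0.12 and *KDM3A* by 0.49 ± 0.12, against 4.02% of genes called higher. It called *SLC16A3* lower at -0.73 ± 0.13, against 5.83% of genes called lower. The adjusted p of these 5 lay at 0.00431, 0.0194, 0.0335, 0.0303 and 0.00985. *ANKRD37* measured 11.88 to 12.16 on the 3 arrays of replicate 2 against 11.20 to 11.32 in replicate 1, and *EGLN1* measured 10.97 to 11.18 against 10.20 to 10.64. All 9 tested HIF targets had a difference above 0, with a median of 0.31. Of all tested genes, 56.8% were below 0, with a median of -0.04. Of the 8 enzymes of upper glycolysis 3 were above 0, with a median of -0.09. Of the 8 enzymes of lower glycolysis 6 were above 0, with a median of 0.15. The count of calls was 1 without the siRNA1 array of replicate 2 and 2 with 75th percentile scaling.

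Replicate 3 was hybridized on the other slide, so its differences from the others cannot be told apart from those between slides. Against replicate 2, limma called 9 members lower and none higher, against 13.3% and 9.35% of genes. They were *ANKRD37* at -1.10 ± 0.12 or 46.7% of replicate 2, *ADM* at -0.90 ± 0.18, *VEGFA* at -0.86 ± 0.13, *PFKFB3* at -0.78 ± 0.16, *SLC2A3* at -0.74 ± 0.17, *SLC2A1* at -0.63 ± 0.13, *EGLN1* at -0.60 ± 0.14, *KDM3A* at -0.36 ± 0.12 and *PFKM* at -0.31 ± 0.10. The adjusted p ranged from 0.00243 for *ANKRD37* to 0.0476 for *KDM3A*. Without the siRNA1 array or the siRNA2 array of replicate 3, 4 members remained past the threshold, and *PFKFB3* and *SLC2A3* were not among them. On those 2 arrays *PFKFB3* lay at -0.84 and -0.78 from the control of its replicate number, and *SLC2A3* at -0.97 and -1.02. Their differences between replicate numbers thus rest largely on the siRNA arrays. With normexp and quantile normalization 8 members were called lower and 3 higher, with *KDM3A* and *PFKM* not called.

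Against replicate 1, limma called 6 members lower in replicate 3 and 2 higher, against 19% and 9.81% of genes. *SLC2A3* (-0.73 ± 0.17), *ADM* (-0.59 ± 0.18), *VEGFA* (-0.48 ± 0.13), *SLC16A3* (-0.47 ± 0.13), *PFKM* (-0.41 ± 0.10) and *SLC2A1* (-0.41 ± 0.13) were lower. *PGK1* (0.42 ± 0.10) and *ENO1* (0.37 ± 0.12) were higher. These counts are near or below the shares of all genes, and without the siRNA1 array of replicate 1 the count was 1. *SLC2A3* was not called without the siRNA1 array or without the siRNA2 array of replicate 3. Of the 16 tested enzymes of upper and lower glycolysis, the other 13 were not called between replicate numbers, although *GPI*, *LDHA* and *ENO2* were called under some alternatives. *PFKFB4* differed by 0.10 ± 0.11, -0.06 ± 0.11 and -0.15 ± 0.11 in replicate 2 against 1, 3 against 1 and 3 against 2.

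**Figure D5:**
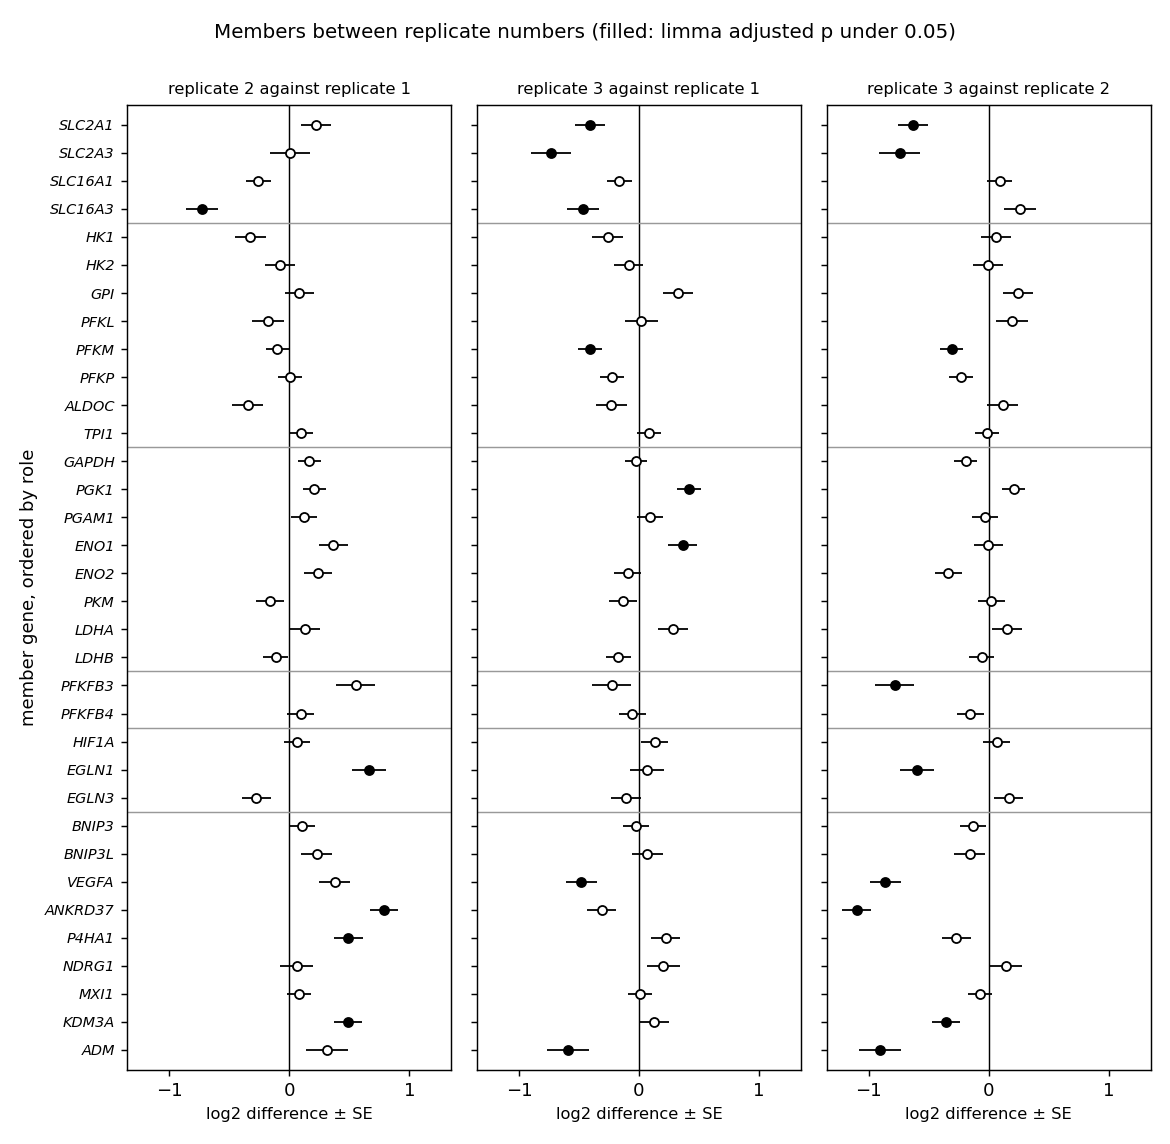
Generalized log2 differences between replicate numbers (points, with SE from limma, 3 arrays per replicate number) for each tested member, with filled points for limma adjusted p under 0.05. *ANKRD37*, *EGLN1*, *P4HA1* and *KDM3A* are filled and above 0 in replicate 2 against replicate 1, and the 9 filled points of replicate 3 against replicate 2 are all below 0.

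Of the members, 10 had 2 probes and *MXI1* had 3, and the rest with a matched probe had 1. The second probe of *SLC2A3* was also called in replicate 3 against replicates 1 and 2 (-0.67 and -0.96), as was that of *VEGFA* (-0.51 and -0.54). The second probe of *PFKFB3* was not called in replicate 3 against replicate 2 (-0.35, limma adjusted p = 0.21). The second probe of *BNIP3L*, in contrast, was called in replicate 2 against replicate 1 (0.61) and in replicate 3 against replicate 2 (-0.52), where its brightest probe gave 0.23 and -0.16 and was not called.

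Genes of the same pathways outside the set were read from lists of other hypoxia response genes, other glycolysis, pentose phosphate and pyruvate genes, other genes of the HIF axis and respiratory chain subunits. Of 22 other hypoxia response genes tested, 19 had a difference below 0 for both siRNAs, against 58.9% of all tested genes. Their median was -0.21, with a range from -0.54 to 0.45. *AK4*, *HMOX1* and *RORA* went the other way, above their own control on all 6 siRNA arrays, against 7.4% of genes. With the block, 11 were lower and 3 higher at unadjusted p under 0.05, against 11.5% and 7.74% of genes. None of the 22 was called without the block. With it, limma called 4 lower and none higher, against 1.26% and 1.2% of genes: *KCTD11* at -0.54, *RAB20* at -0.54, *GBE1*, the glycogen branching enzyme, at -0.49 and *INSIG2*, a brake on sterol synthesis, at -0.45. All 4 calls were lost without any 1 replicate number, and with VSN on the processed signal or 75th percentile scaling joined to the block. Of 33 other glycolysis and pyruvate genes, 19 were below 0 with a median of -0.05, and with the block only *PGLS*, of the pentose phosphate pathway, was called (-0.36, limma adjusted p = 0.0498), a call lost under the same alternatives. The 12 other genes of the HIF axis had a median of -0.04, and none was called with or without the block, with none at unadjusted p under 0.05. Of 42 respiratory chain subunits, which lie outside glycolysis, 41 were below 0, which is 97.6% against 88.2% of the members and 58.9% of all tested genes. Their median was -0.15, with a range from -0.30 to 0.04, and none was called with or without the block. At unadjusted p under 0.05, 2 were lower without the block and 6 with it, against 4% and 11.5% of genes. A difference below 0 was thus not particular to the members.

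Other hypoxia response genes also differed between replicate numbers. In replicate 2 against replicate 1, limma called *HMOX1* (0.78), *RORA* (0.65) and *ERO1A* (0.57) higher and *KCTD11* (-0.50) lower. Of 18 alternatives, *HMOX1* kept this call in 11, *KCTD11* in 12, *ERO1A* in 15 and *RORA* in 18. Of the HIF axis, *EPAS1*, which encodes HIF-2 alpha, was called lower in replicate 2 (-1.11) and in replicate 3 (-1.01), each against replicate 1. In replicate 3 against replicate 2, *BHLHE40* (-0.92), *DDIT4* (-0.87), *RORA* (-0.86) and *AK4* (-0.73) were lower, 4 of 9 called among 22. In replicate 3 against replicate 1, 8 were called, among them *DDIT4* (-0.96), *BHLHE40* (-0.84), *AK4* (-0.57) and *FAM162A* (0.55). *PFKFB2*, a further enzyme of the PFKFB family, was higher in replicate 3 than in replicates 1 and 2 (0.71 and 0.62). Of the HIF axis, *VHL*, which targets HIF for degradation, was lower in replicate 3 than in replicates 1 and 2 (-0.49 and -0.39). These calls held in 13 and 9 of 18 alternatives, the latter not with normexp and quantile. *MYC*, which drives glycolytic genes, was higher in replicate 3 than in replicate 2 by 0.75 (limma adjusted p = 0.0154).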

How the data were processed

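RNA of 9 samples was measured on one-colour Agilent arrays. The authors deposited spot-level fluorescence intensity values from Feature Extraction (9.1 in the processing notes, 10.5.1.1 per the file headers), without normalization between arrays, and flags of 0 or 1 for spots well above background, outliers and saturation. They also deposited a table of log2 values normalized with VSN, used as an alternative.

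Own code was used to fit the VSN model, since the package was not installed, on median spot intensities with no background subtracted (least trimmed squares, 7 iterations, quantile 0.9). Outlier spots were left out and spots of a probe averaged. A probe was tested where 3 or more arrays had it well above background. Symbols came from matching transcript accessions to a RefSeq table. Groups were taken from the sample labels and compared in R 4.3.3 with limma 3.58.1, after a check on simulated data. The treatment comparisons had the group alone in the model, with the replicate number as a block in the alternative. The comparisons of replicate numbers had replicate number and group. Deviations from the group mean correlated across probes at 0.31 to 0.75 in 9 pairs of samples with the same number from the labels, and at -0.57 to 0.13 in 18 pairs with different numbers. Precision is limited by the number of arrays and by how far signals exceed background.

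The members and lists were chosen with earlier results of these data known. All 37 members are accounted for, and array values are given for those with adjusted p under 0.05 in any of 7 comparisons with or without the block. From the other lists, up to 5 genes per list and comparison were eligible by the same threshold and the largest difference, and some of these and some marker genes are not reported here. *PFKL*, *GPI* and other probes were added after their values were seen. The alternatives were 4 normalizations, filters, outliers kept, another prior, slide or replicate block, fewer arrays and the mean of probes. The block joined with other normalizations or with fewer replicates, and the split by brightness, were chosen after seeing the data.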

Additional observations from a re-analysis of the deposited data

How the results depend on the processing

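For both siRNAs against control, no member was called without the block under any alternative. With the replicate block 1 member was called, *PFKFB4*, and 1 when the block was joined with normexp and quantile, with the deposited table or with the mean of all probes. Leaving out arrays or a replicate number gave 0 to 0. For siRNA2 against control the count was 1 with the replicate block, 2 with normexp and quantile added (*PFKFB4* and *MXI1*), 1 with the deposited table, 1 with the mean of all probes, 0 with VSN on the processed signal or 75th percentile scaling joined to the block, and 0 to 2 when arrays were left out. The 2 were *PFKFB4* and *ADM* with the block and without replicate 3. For siRNA1 against control and siRNA2 against siRNA1 the count was 0 under every alternative run.

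Calls in replicate 2 against replicate 1 fell from 5 to 3 with VSN on the processed signal, 2 with 75th percentile scaling and 2 with no filter, were 6 to 7 with normexp and quantile, the filter on all 9 arrays, the mean of all probes or the trend prior, and ranged from 1 to 7 when arrays were left out. In replicate 3 against replicate 1 they fell from 8 to 4, 3 and 3, were 10 with the trend prior, and ranged from 1 to 8 when arrays were left out. In replicate 3 against replicate 2 they ranged from 4 to 9 when arrays were left out and from 7 to 11 under the other alternatives. The count of 6 members below every control array was 1 with normexp and quantile and 6 to 12 when arrays were left out, with 10 without the control array of replicate 1. The count of 16 below the control of their own replicate number was 9 with normexp and quantile, and 19 to 20 without a replicate number. Leaving out arrays can only keep or raise both counts, so these rises carry no support.

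Values near 0 changed sign for both siRNAs against control. With normexp and quantile, with or without the block, *GAPDH* was at 0.0698, *LDHB* at 0.0683, *HIF1A* at 0.0308, *NDRG1* at 0.0279, *EGLN1* at 0.0114, *BNIP3* at -0.0366 and *BNIP3L* at 0.11. The mean of all probes put *BNIP3L* at 0.0136, and VSN on the processed signal put *ENO2* at -0.0025. When arrays were left out, ranges that crossed 0 were -0.0269 to 0.12 for *SLC16A1*, -0.22 to 0.0366 for *PFKM*, -0.28 to 0.0400 for *ALDOC*, -0.0567 to 0.0984 for *ENO2*, -0.17 to 0.0088 for *LDHB*, -0.12 to 0.0900 for *HIF1A*, -0.29 to 0.20 for *EGLN1*, -0.11 to 0.17 for *BNIP3L*, -0.0184 to 0.28 for *VEGFA*, -0.42 to 0.0299 for *ANKRD37* and -0.13 to 0.0997 for *NDRG1*. Without a change of sign, the value moved by over 1.5 times when arrays were left out for members such as *P4HA1* (-0.40 to -0.0383), *PFKFB3* (-0.43 to -0.0321), *SLC16A3* (-0.45 to -0.0666), *KDM3A* (-0.39 to -0.0956), *SLC2A1* (-0.51 to -0.14) and *GPI* (-0.45 to -0.17). With the block, *ENO2* was at -0.0383, *EGLN1* at 0.0057 and *BNIP3L* at 0.16 without replicate 2, and *HIF1A* was at 0.0076 and *VEGFA* at -0.0125 without replicate 1. *ARNT2* of the HIF axis, at 0.39 in replicate 3 against replicate 1, was at -0.0775 with normexp and quantile and -0.0783 with the deposited table. The causes were not tested. Under the other scalings the median of all genes moved by less than 0.1.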
